A study of Mus musculus with 11 samples.

Results

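RNA levels of 10 subunits of the SWI/SNF chromatin remodeling complexes were followed in 11 RNA-seq samples of im-scWAT cells, a line of mouse preadipocytes that was made from inguinal white fat and immortalized by large T antigen. The subunits formed a named list, and each was matched by its exact symbol among the 29955 gene symbols of the files. All 10 were found: the ATPases Smarca4 and Smarca2, the core and associated subunits Smarcb1, Smarcc1, Smarcc2, Smarcd1 and Smarcd3, and the ARID subunits Arid1a, Arid1b and Arid2. Values are FPKM of the sense strand, scaled to exon length and to the total mapped in a sample, so levels can be compared between genes of different length.

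The time course had 6 samples of cells that had not been transduced. There were 2 samples of day 0, when preadipocytes had reached confluence, and at days 4 and 8 there was 1 sample with rosiglitazone (ROS) and 1 without. ROS is a PPARγ ligand that drives these cells towards beige adipocytes and was used at 0.5 μM, while cells without ROS became white adipocytes. One of the samples of day 0 belongs by its label to each arm, but ROS was first added with the induction medium, so they were treated as a pair. All samples after day 0 had received the same inducing mixture of insulin, thyroid hormone, dexamethasone, indomethacin and a phosphodiesterase inhibitor. By the labels the medium was changed at day 7 to one without ROS unless otherwise stated, whereas the methods of the study describe ROS up to day 8. A sample of day 8 with ROS is therefore one differentiated with ROS, and whether ROS was still present on the last day differs between these sources. The other 5 samples were taken at day 8 with ROS, in the same sense, from cells that all carried an shRNA against mouse Jmjd1a together with retroviral human JMJD1A, an H3K9 demethylase. WT-hJMJD1A had 2 samples (WT A and WT B). The mutants had 1 sample each: S265A, which cannot be phosphorylated at that serine, S265D, which mimics the phosphate, and S265D-H1120Y, which in addition lacks demethylase activity. The labels do not say that samples of a group came from separate cultures, so p-values measure only the spread between these samples. ROS was not a term of the main fit of the days. At days 4 and 8 the spread within a day was therefore the difference between the sample with ROS and the sample without. All samples came from an immortalized cell line and not from tissue.

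The totals behind the values went from 3.105 to 5.295 Gb of mapped bases per sample, with a median of 4.643 Gb. Among 15369 genes, 1.52% were 2-fold or more apart in the day 0 pair and 21.1% in the WT pair, so the WT samples stood apart. The summed FPKM of 10 adipocyte markers was 270 and 272 at day 0 and between 9968 and 36608 in all other samples. Most of each sum was Fabp4, at 248 and 249 at day 0 and between 7631 and 31402 in the others. The sum of 8 preadipocyte markers, mostly Ly6a, was 563 and 632 at day 0. It was 253 and 197 at day 4 without and with ROS, and 577 and 146 at day 8. Of 6 macrophage markers, Ptprc and Emr1 were listed at 0 in every sample, but Cd68 went from 0.541 to 21.7, and their sum was 2.77 and 2.78 at day 0, between 0.602 and 4.43 at days 4 and 8, and between 5.13 (WT A) and 22.0 (S265D-H1120Y) in transduced cells. Of 6 muscle markers, Myod1, Myog, Myf5 and Ckm were at 0 throughout, while Des went from 0.407 to 12.2 and Acta1 from 0.224 to 19.3, both highest in WT B. The muscle sum was 0.660 and 0.807 at day 0, between 4.11 and 11.9 at days 4 and 8, and between 8.996 (WT A) and 31.6 (WT B) in transduced cells. The part of other cell types in the results was not tested. The knockdown target, listed as Kdm3a, had an FPKM of 23.2 and 20.9 at day 0, 15.8 and 15.1 at day 4 without and with ROS, 16.0 and 21.1 at day 8, 20.4 (A) and 17.9 (B) in the WT pair, 13.03 in S265A, 23.0 in S265D and 28.5 in S265D-H1120Y. Its values in transduced cells thus overlapped those of cells without the shRNA, and how far reads of the human cDNA counted towards the mouse gene was not tested. The paper reports, from immunoblot and qPCR, that this shRNA efficiently removed the endogenous protein and RNA.

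SWI/SNF complexes use the energy of ATP to slide or evict nucleosomes and so open DNA to transcription factors. Complexes of the canonical BAF and PBAF types hold a single ATPase, BRG1 (encoded by Smarca4) or BRM (Smarca2). Their core includes SMARCB1, a pair of SMARCC scaffold proteins and a SMARCD subunit. The ARID subunit tells these types apart: ARID1A or ARID1B marks canonical BAF, ARID2 marks PBAF. SWI/SNF is known in fat cells as a coactivator of C/EBP and PPARγ at adipocyte genes.

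The results turn most on a pair of scaffold genes that moved differently, Smarcc1 and Smarcc2, and on Smarca2, for which transcripts from separate starts were listed. The 250 bases before each of these starts are therefore given from the mm9 genome, 5′ to 3′ on the strand of the gene, all on the plus strand, with capitals marking matches to the motifs searched. Smarcc1 is read from chr9:110034278-110034527, Smarcc2 from chr10:127896042-127896291, the start of full-length Smarca2 from chr19:26679400-26679649, and the internal start of the short Smarca2 transcript from chr19:26822643-26822892, which is intronic in the full-length transcript.
Smarcc1: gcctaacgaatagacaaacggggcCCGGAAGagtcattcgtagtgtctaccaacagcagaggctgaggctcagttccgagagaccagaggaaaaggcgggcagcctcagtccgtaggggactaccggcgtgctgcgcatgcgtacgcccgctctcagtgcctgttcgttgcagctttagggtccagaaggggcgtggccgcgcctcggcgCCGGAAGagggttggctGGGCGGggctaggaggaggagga
Smarcc2: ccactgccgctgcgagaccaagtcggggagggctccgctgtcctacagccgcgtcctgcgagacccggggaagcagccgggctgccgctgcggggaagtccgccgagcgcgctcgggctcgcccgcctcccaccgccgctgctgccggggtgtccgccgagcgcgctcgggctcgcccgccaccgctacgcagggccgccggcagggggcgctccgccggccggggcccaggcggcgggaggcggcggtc
Smarca2 full-length start: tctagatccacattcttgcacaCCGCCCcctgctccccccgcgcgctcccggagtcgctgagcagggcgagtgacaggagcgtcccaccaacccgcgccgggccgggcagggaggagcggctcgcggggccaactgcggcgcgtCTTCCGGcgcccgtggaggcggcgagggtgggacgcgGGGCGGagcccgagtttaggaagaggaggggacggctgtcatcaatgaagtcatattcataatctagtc
Smarca2 internal start: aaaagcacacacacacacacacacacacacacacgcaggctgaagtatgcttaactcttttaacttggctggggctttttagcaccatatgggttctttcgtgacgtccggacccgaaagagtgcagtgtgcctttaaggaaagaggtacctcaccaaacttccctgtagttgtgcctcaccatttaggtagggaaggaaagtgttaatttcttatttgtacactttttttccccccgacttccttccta

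The windows were searched on both strands for GGGCGG (the GC box), CCAAT (the CCAAT box), TATAAA (the TATA box), CCGGAAG (an ETS motif) and TTTCCCGC and TTTGGCGC (E2F motifs), none of which shares a match with another here. Of 22362 promoters of protein-coding genes in GENCODE vM1, windows of the same length held GGGCGG in 39.6%, CCAAT in 35.0%, TATAAA in 12.3%, CCGGAAG in 8.22%, TTTCCCGC in 1.08% and TTTGGCGC in 0.510%. Smarcc1 had CCGGAAG at 226 and at 40 bases before the start and GGGCGG at 23 bases. The window of Smarcc2 held none of these letters and was 80.8% G or C, above 98.9% of the promoters. Full-length Smarca2 had GGGCGG at 228 and 69 bases and CCGGAAG at 106 bases before its start, in a window of 68.4% G or C with 28 CG steps. The window before the internal Smarca2 start held no match, was 45.6% G or C and had 6 CG steps. All other subunits had at least 1 GGGCGG, and Smarcd1 had in addition the TTTCCCGC motif at 131 bases. At 8 of the 11 starts examined the bases were identical to those in the RefSeq promoter table (GRCm38.p6), the exceptions being Arid1a, Arid2 and the internal Smarca2 start.

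**Figure D1:**
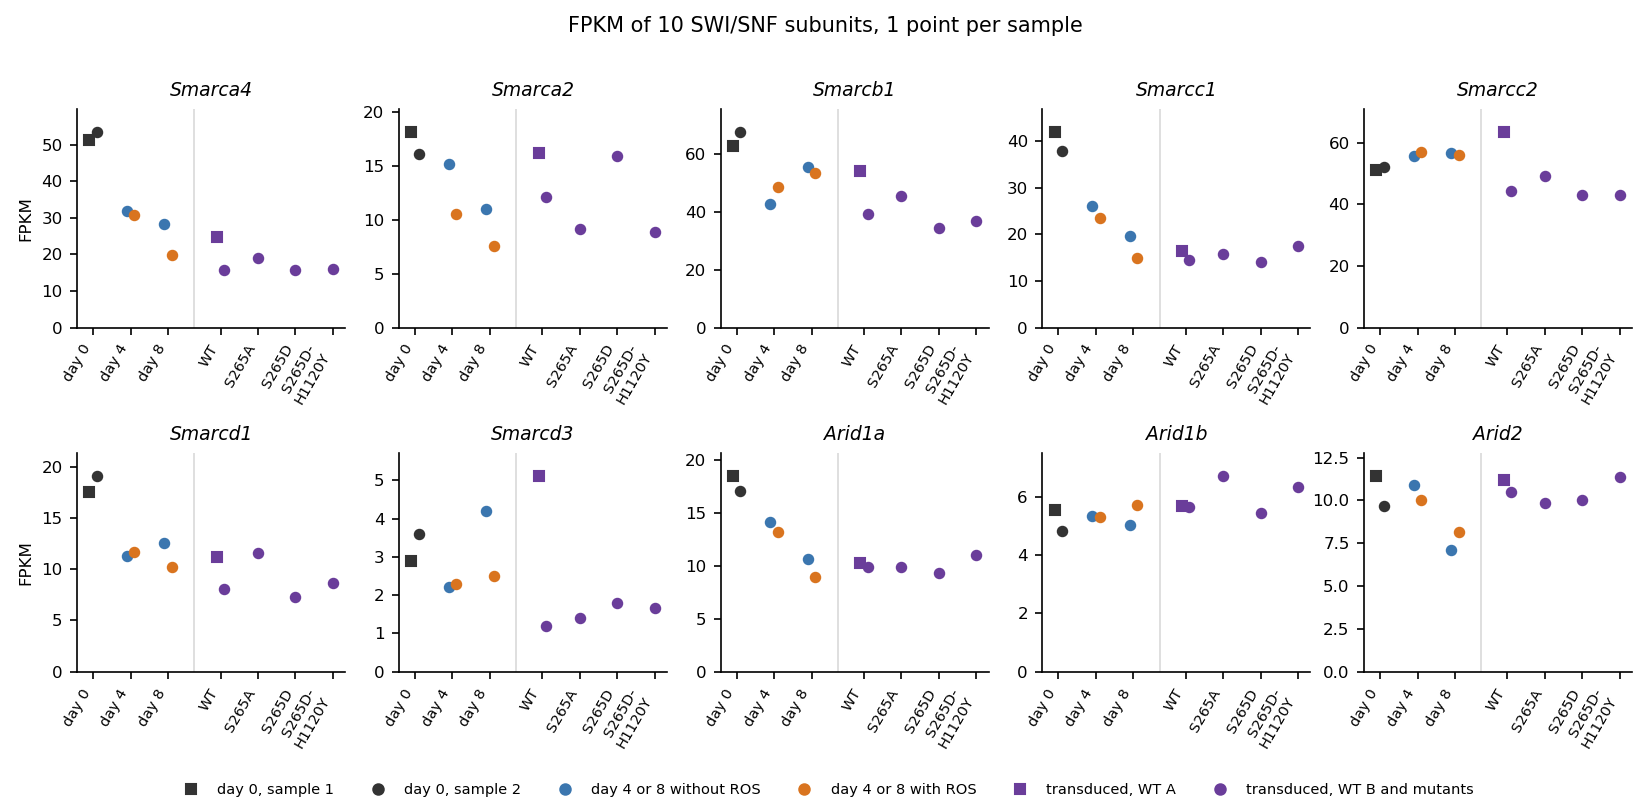
FPKM of each of the 10 subunits (vertical axes start at 0 and differ between panels) in each sample, by day for the time course and by JMJD1A form for the transduced cells. Each point is 1 sample, with no error bars. Smarca4 and Smarcc1 were highest in the day 0 pair, Smarcc2 lay between 43.0 and 63.4 throughout, and WT A was the highest sample for Smarcc2 and Smarcd3.

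At day 0 the most abundant of these RNAs was Smarcb1, with an FPKM of 65.2 ± 3.28 (SD, n = 2). Smarca4 (52.3 ± 1.48) and Smarcc2 (51.5 ± 0.696) followed with overlapping values, and Smarcc1 stood at 39.9 ± 2.80. Smarcd1 (18.3 ± 1.10), Arid1a (17.8 ± 0.946) and Smarca2 (17.1 ± 1.44) overlapped as well, but the Smarca2 value is that of a short transcript that starts inside the gene. The row of the full-length Smarca2 transcript includes the 3′ exons that it shares with the short one. That row was at 8.84 ± 0.768 at day 0, under both samples of Arid2, and at 6.85 ± 1.73 at day 8. Outside the shared exons the full-length transcript was at 4.99 ± 0.407 at day 0 and 5.54 ± 1.42 at day 8. Arid2 was at 10.6 ± 1.21, Arid1b at 5.18 ± 0.505 and Smarcd3 at 3.24 ± 0.495. At day 8 Smarcc2 (56.4 ± 0.498, n = 2) and Smarcb1 (54.5 ± 1.30) led, ahead of Smarca4 (24.1 ± 6.07) and Smarcc1 (17.3 ± 3.21). Each SD of day 8 is that between the sample with ROS and the sample without, and not between replicates. Below them the values of Smarcd1 (11.4 ± 1.62), Arid1a (9.79 ± 1.24) and Smarca2 (9.29 ± 2.44) overlapped, and those of the short Smarca2 transcript overlapped with Arid2 (7.63 ± 0.778). Arid1b (5.37 ± 0.493) and Smarcd3 (3.35 ± 1.21) remained lowest, and did not overlap. Over the 11 samples the mean levels ranged from the 30.4th percentile of the genes tested (Smarcd3) to the 89.9th (Smarcc2). The order is a description of levels and was not tested.

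Differentiation was accompanied by a fall in part of this list. From day 0 to day 8, 6 of the 10 subunits fell: Smarcc1, Smarca4, Smarca2, Arid1a, Smarcd1 and Arid2. No subunit rose. Over all 15201 genes tested, 25.0% were called lower and 26.1% higher in this comparison (limma, adjusted p under 0.05). The median difference of the 10 subunits was -0.57 on the log2 scale, against -0.04 for all genes. In bulk RNA, fewer cells of a type and less RNA per cell cannot be told apart.

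Smarca4, which encodes the ATPase BRG1, had an FPKM of 51.3 and 53.4 in the day 0 pair, 31.9 and 30.9 at day 4 without and with ROS, and 28.4 and 19.8 at day 8. All samples of days 4 and 8 were lower than the day 0 pair. The difference from day 0 to day 4 was -0.73 ± 0.18 (log2, SE; limma adjusted p = 0.0216) and that to day 8 was -1.14 ± 0.18 (limma adjusted p = 0.00411), a ratio of 0.455.

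Smarcb1, which encodes the core subunit SNF5, had an FPKM of 62.9 and 67.5 at day 0, 42.8 and 48.6 at day 4 and 55.4 and 53.5 at day 8, without ROS first. The values of day 4 were the lowest, and those of day 8 lay between. The fall to day 4 was called (-0.51 ± 0.12 on the log2 scale, limma adjusted p = 0.0173), while the difference between day 8 and day 0 was not (-0.26 ± 0.12, limma adjusted p = 0.113).

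The SMARCC scaffold subunits, BAF155 (Smarcc1) and BAF170 (Smarcc2), took different courses. Smarcc1 had an FPKM of 41.9 and 37.9 at day 0, 26.1 and 23.6 at day 4, and 19.6 and 15.0 at day 8. No pair of days overlapped. Smarcc1 fell by 0.68 on the log2 scale to day 4 (SE 0.16, limma adjusted p = 0.0187) and by 1.21 to day 8 (SE 0.16, limma adjusted p = 0.00233), the largest fall of the 10. Smarcc2 had an FPKM of 51.0 and 52.0 at day 0, 55.8 and 57.0 at day 4, and 56.7 and 56.0 at day 8. All its later values were above the day 0 pair, but by little: the difference at day 8 was 0.13 ± 0.10 (log2, limma adjusted p = 0.317).

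The SMARCD subunits link the core to transcription factors. Smarcd1 (BAF60A) had an FPKM of 17.5 and 19.1 at day 0, 11.3 and 11.7 at day 4, and 12.6 and 10.3 at day 8. It had reached its lower level by day 4 (-0.67 ± 0.15 on the log2 scale, limma adjusted p = 0.0147) and was at -0.68 ± 0.15 relative to day 0 at day 8 (limma adjusted p = 0.0109). Smarcd3 (BAF60C) was low, at 2.89 and 3.59 at day 0, 2.22 and 2.29 at day 4, and 4.20 and 2.49 at day 8, and the days 0 and 8 overlapped. Its differences were not called at either day (-0.50 ± 0.29 with limma adjusted p = 0.206 at day 4, 0.01 ± 0.29 with limma adjusted p = 0.982 at day 8). The Smarcd3 locus overlaps Chpf2 on the opposite strand, and the values used here are those of the sense strand. The antisense FPKM of Smarcd3 lay between 0.204 and 0.536 over the 11 samples and reached 44.8% of the sense FPKM (in WT B). No other subunit exceeded 3.46%. How far the overlap affects the sense values was not tested.

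Among the ARID subunits, which are large DNA-binding proteins, Arid1a declined at each step: 18.4 and 17.1 at day 0, 14.1 and 13.2 at day 4, and 10.7 and 8.92 at day 8, with no overlap between days. Its difference was -0.38 ± 0.14 at day 4 (log2, limma adjusted p = 0.0772), which was not called except after rescaling to the median (0.0345) or without either sample of day 8 (0.0193 and 0.0197), and -0.86 ± 0.14 at day 8 (limma adjusted p = 0.00468), which was. Arid1b, its paralog, had an FPKM of 5.54 and 4.83 at day 0, 5.32 and 5.29 at day 4, and 5.03 and 5.72 at day 8. These values overlapped, with a difference at day 8 of 0.05 ± 0.16 (log2, limma adjusted p = 0.811). Arid2 had an FPKM of 11.4 and 9.70 at day 0, 10.9 and 10.0 at day 4, and 7.08 and 8.18 at day 8. Its fall to day 8 was called by a small margin (-0.46 ± 0.16 on the log2 scale, limma adjusted p = 0.0493). That call was lost with a pseudocount of 1 (adjusted p = 0.0531), with no filter (0.0560), with the transcript of highest mean FPKM (0.0510), with samples rescaled to their median (0.0789) with ROS as a term (0.0566) and with the arm of the label as a replicate block (0.0640), and also when any 1 sample other than that of day 8 with ROS was left out (0.0853 to 0.267).

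By day 4, 4 of the 10 subunits had fallen (Smarca4, Smarcc1, Smarcd1 and Smarcb1) and none had risen, against 19.4% of all genes lower and 22.2% higher. From day 4 to day 8 none of the 10 was called by limma in either direction, with 0.132% of all genes lower and 0.362% higher. At an unadjusted p under 0.05 in this step were Arid1a (-0.48 on the log2 scale), Smarcc1 (-0.53) and Arid2 (-0.45), each with values of day 8 below those of day 4. So were 3595 of the 15201 genes tested, in either direction. The step from day 4 was called for Smarcc1 when ROS was a term of the fit (limma adjusted p = 0.0469), where 1653 genes were called. With the sample of day 8 without ROS left out, the differences were -0.72 for Smarcc1, -0.66 for Smarca4 and -0.61 for Arid1a (log2). The counts against day 0 rested on few samples. Without either sample of day 0 or of day 4, 0 of the 4 calls at day 4 were made, and without the first or the second sample of day 0, 2 and 3 subunits were called at day 8, Smarcc1 and Smarca4 among them in each case, with Arid1a as the other when the second was left out. At day 8 the differences of Smarcd1 without the first and the second were -0.74 and -0.62 (log2, limma adjusted p = 0.0608 and 0.0832), and that of Arid1a without the first was -0.80 (0.0505).

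**Figure D2:**
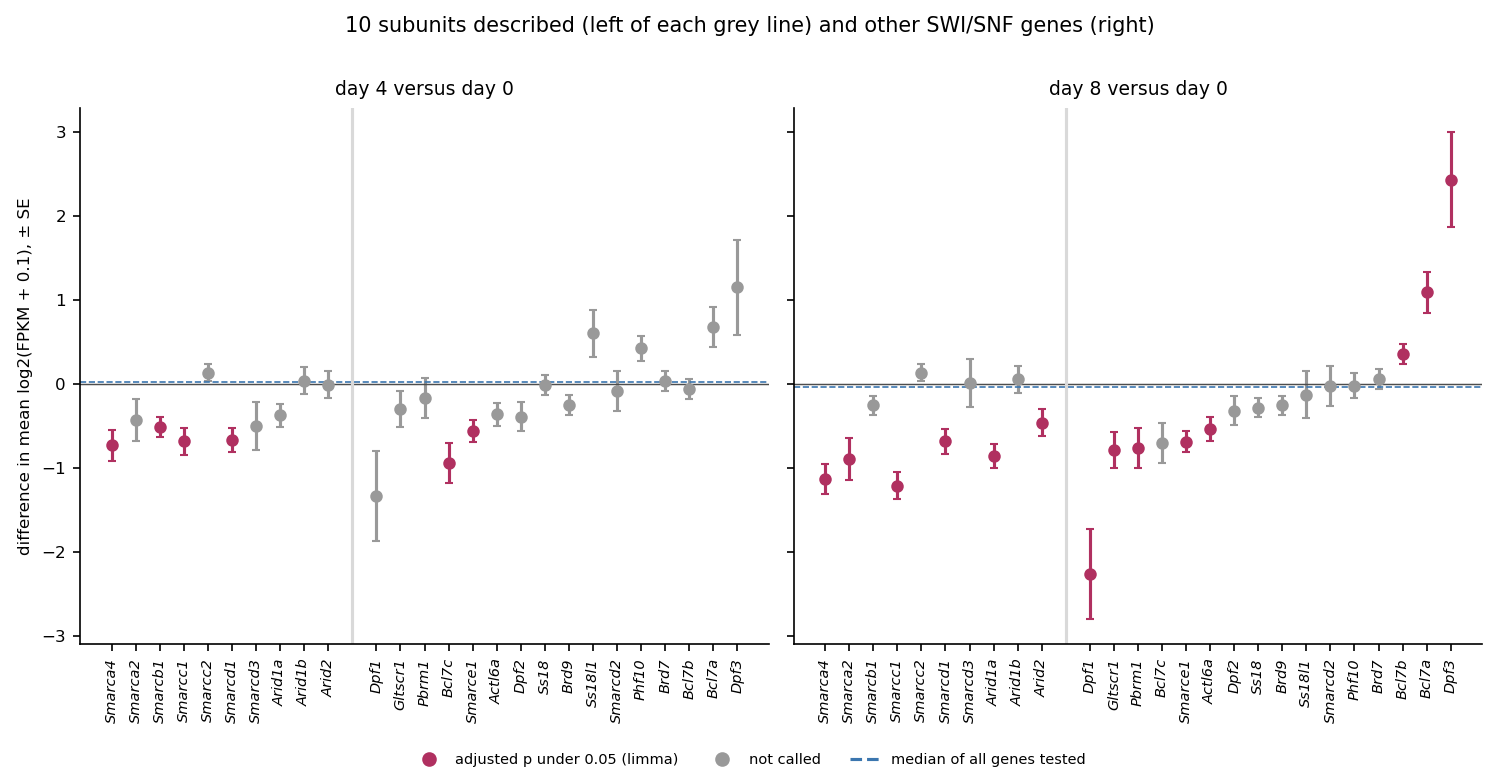
Difference in mean log2(FPKM + 0.1) from day 0 to day 4 (left panel) and to day 8 (right panel), with SE from limma over 6 samples, for the 10 subunits and for 16 other SWI/SNF genes. Red points had an adjusted p under 0.05. At day 8 these were 6 of the 10, all below 0, and among the others 5 below and 3 above. The calls of Smarca2 and Arid2 at day 8 did not hold in every setting.

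Smarca2, which encodes the ATPase BRM, needs its transcripts told apart. The row that stands for Smarca2 in the files is a short transcript of 1962 exon bases in 9 exons (mm9 chr19:26822893-26852811, plus strand), and not the full-length one of 5813 exon bases, whose start lies at 26679650. The short transcript has 3 exons before the first 3′ exon that it shares with the full-length one, and 6 exons from there on. Whether any of those 3 also lies in the full-length transcript was not tested. Its FPKM was 18.1 and 16.1 at day 0, 15.2 and 10.5 at day 4 without and with ROS, and 11.02 and 7.57 at day 8, and all later values were below the day 0 pair. The difference was -0.43 ± 0.25 at day 4 (log2, limma adjusted p = 0.210) and -0.89 ± 0.25 at day 8 (limma adjusted p = 0.0271). That call was lost when either sample of day 0 was left out (limma adjusted p = 0.144 and 0.0925) and without the sample of day 8 with ROS (0.0648).

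A further row covers 1583 bases of the 3′ exons that the short and the full-length transcript share. These exons were at an FPKM of 20.4 and 17.9 at day 0, 16.7 and 11.8 at day 4, and 12.2 and 8.55 at day 8. The remaining 4230 bases of the full-length transcript, obtained by subtracting mapped bases, were at 5.28 and 4.71 at day 0, 6.60 and 5.46 at day 4, and 6.54 and 4.53 at day 8. The short transcript holds an exon of 106 bases that the row of 3′ exons leaves out. Whether it lies among these 4230 bases was not tested. The fall thus lay in the 3′ exons, while the values of the rest of the gene overlapped between days 0 and 8. The ratio of the 3′ exons to the rest was 3.86 and 3.81 at day 0, 2.54 and 2.16 at day 4, and 1.86 and 1.89 at day 8. A ratio of the 3′ part to the 5′ part was taken for Smarcc1, which fell as a whole. It went from 1.15 and 1.10 at day 0 to 0.882 and 0.896 at day 8, a smaller shift in the same direction. Smarcc1 is a single gene, and such ratios were not taken over other genes. The part of coverage along the transcript in the Smarca2 shift was therefore not tested. These ratios were not tested, and with 2 samples a day an exact test could not reach 0.05. The 379 bases of the short transcript outside those 3′ exons, among them the same exon of 106 bases, were at 8.57 and 8.28 at day 0, 8.57 and 5.04 at day 4, and 6.20 and 3.47 at day 8. When the transcript with the most exon bases stood for each gene, an alternative chosen after the values were seen, the difference of Smarca2 at day 8 was -0.38 ± 0.23 (log2, limma adjusted p = 0.203) and was not called. FPKM values cannot assign reads on shared exons to a transcript.

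**Figure D3:**
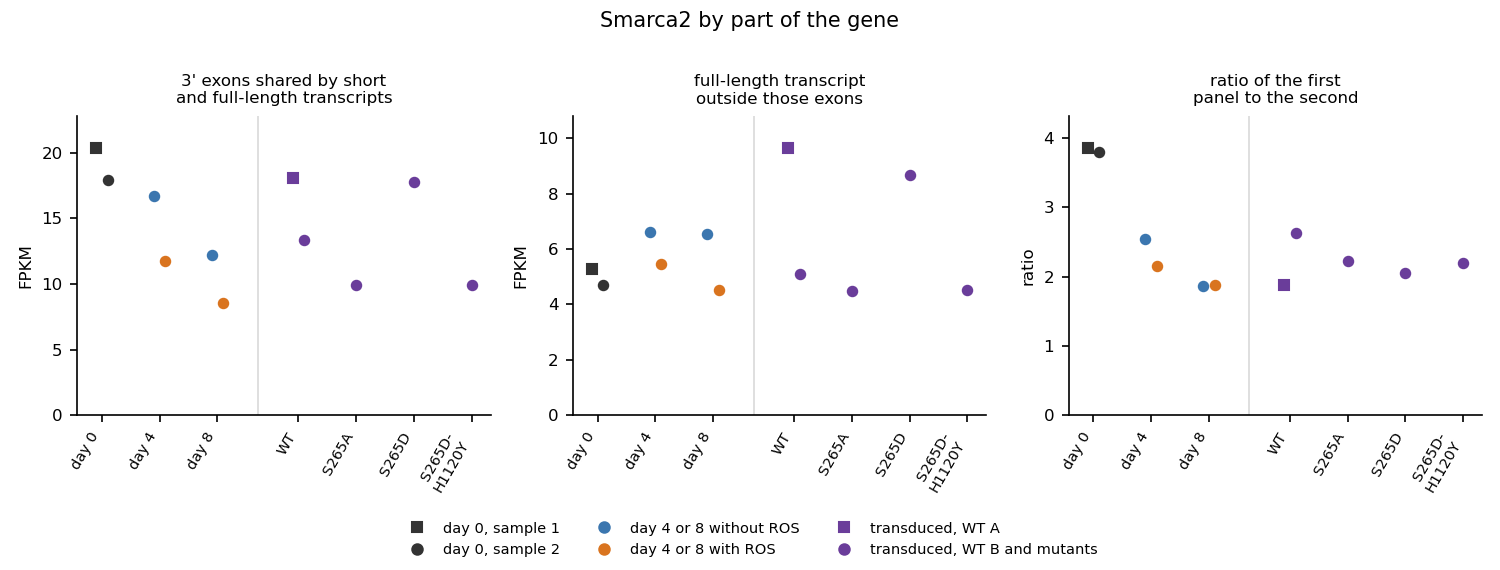
Smarca2 in each sample: FPKM over 1583 bases of shared 3′ exons (left), FPKM over the remaining 4230 bases of the full-length transcript (middle) and their ratio (right). Each point is 1 sample and axes start at 0. The ratio was 3.86 and 3.81 in the day 0 pair and between 1.86 and 2.63 in all other samples.

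The balance between alternative subunits was read as the log2 ratio of their FPKM values in each sample, without a test. Smarcc1 over Smarcc2 was at -0.28 and -0.45 at day 0, -1.10 and -1.27 at day 4, and -1.54 and -1.90 at day 8, without ROS first. The Smarcc1 share of the summed FPKM of both genes went from 45.1% and 42.2% to 25.6% and 21.2%. In transduced cells the ratio lay between -1.96 (WT A) and -1.29 (S265D-H1120Y). Arid1a over Arid1b went from 1.74 and 1.83 at day 0 to 1.09 and 0.64 at day 8, and was between 0.57 and 0.86 in the transduced cells. Arid1a, the higher RNA in every sample, thus came closer to Arid1b. Arid1a over Arid2 was 0.69 and 0.82 at day 0, 0.59 and 0.12 at day 8, and between -0.12 and 0.01 in the transduced cells. Smarcd1 over Smarcd3 was 2.60 and 2.41 at day 0 and 1.58 and 2.04 at day 8, with 1.14 in WT A and 2.76 in WT B.

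Smarca4 over Smarca2 was 1.503 and 1.733 at day 0 and 1.37 and 1.39 at day 8 by the short Smarca2 row, with 1.07 and 1.56 at day 4. Its difference between day 8 and day 0 was -0.24, and with the longest transcripts it was -0.75. With the short row standing for Smarca2, the summed FPKM of the ATPases went from 69.3 and 69.4 at day 0 to 39.4 and 27.4 at day 8. That sum is not one of full-length ATPase RNAs. The full-length Smarca2 row, shared 3′ exons included, was at 9.39 and 8.30 at day 0, and at 8.07 without and 5.63 with ROS at day 8. Except for Smarca4 over Smarca2, the day 0 pair lay above the 4 later samples of the time course in each ratio.

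**Figure D4:**
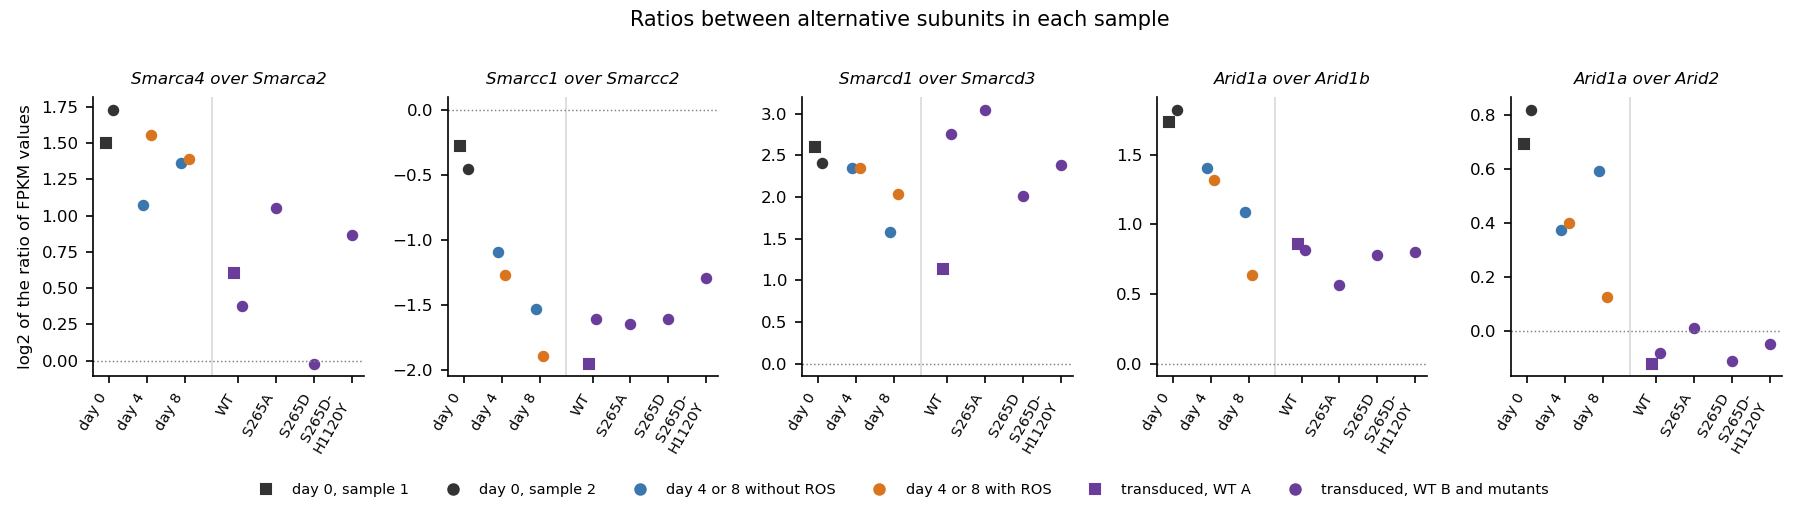
Log2 of the ratio of FPKM values between alternative subunits in each sample, by day and by JMJD1A form. Each point is 1 sample, the vertical axes differ, and the dotted line marks equal FPKM. Smarcc1 over Smarcc2 lay at -0.28 and -0.45 in the day 0 pair and below -1 in all other samples.

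Of 19 further SWI/SNF genes found in the files, 16 passed the filter on low values. Bcl11a and Bcl11b, zinc finger proteins found with SWI/SNF in lymphoid and neural cells, were listed at 0 in all samples, and Actl6b, the neuronal actin-like subunit, did not exceed 0.0746. From day 0 to day 8, 5 of the 16 fell and 3 rose, with a median of -0.27 on the log2 scale, against 25.0% of all genes lower and 26.1% higher and a median of -0.04. Both counts are near the shares of all genes, so the genes are given as single calls. Those that fell were Smarce1 (an HMG-box core subunit, FPKM 53.9 to 33.5, limma adjusted p = 0.00653), Dpf1 (1.49 to 0.289, limma adjusted p = 0.0155), Actl6a (an actin-like subunit, 47.7 to 32.9, limma adjusted p = 0.0207), Gltscr1 (2.53 to 1.43, limma adjusted p = 0.0248) and Pbrm1 (the bromodomain subunit of PBAF, 10.6 to 6.09, limma adjusted p = 0.0403). Those that rose were Bcl7a (1.40 to 3.05, limma adjusted p = 0.0121), Dpf3 (listed at 0 in both samples of day 0 and at 0.216 and 0.817 at day 8, limma adjusted p = 0.0143) and Bcl7b (15.6 to 20.0, limma adjusted p = 0.0450). Dpf1 and Dpf3, paralogs with PHD fingers, hence moved in opposite directions at low levels. By day 4, Smarce1 and Bcl7c had fallen and none had risen, with 19.4% and 22.2% of all genes called lower and higher.

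Genes of other chromatin remodelers fell as well. Of 30 genes of other remodelers, 15 fell and 1 rose (Chd7) from day 0 to day 8, with a median of -0.64, against the same 25.0% and 26.1% of all genes. The list holds genes of the ISWI, CHD and NuRD, and INO80 and SRCAP families and 4 further genes (Hells, Atrx, Smarcad1 and Smarcal1), none of which was called. Most proliferation markers moved with the fall too: at day 8, 7 of 12 were called lower and none higher, and 10 had a difference below 0. Their summed FPKM was 1185 and 1138 at day 0, between 855 and 1008 at days 4 and 8, and between 409 and 550 in the transduced cells. Pcna, the largest term of that sum, went the other way without being called, from 284 and 271 at day 0 to 368 without and 320 with ROS at day 8. The part of proliferation in the fall of the subunits was not tested.

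The effect of ROS was read at days 4 and 8. Each side had 1 sample, so a difference was called at 2-fold, the definition used in the study, and it has no replicate check of its own. None of the 10 passed 2-fold at day 4 or day 8, where 2.45% and 13.5% of all genes did. At 1.5-fold none passed at day 4 (10.3% of all genes did), and at day 8 only Smarcd3 did, lower with ROS, against 23.0% of all genes lower and 7.07% higher. Smarcd3 was at 2.49 with ROS and 4.20 without (-0.73 on the log2 scale). The summed FPKM of 8 preadipocyte markers was 146 with ROS and 577 without at day 8. Most of it was Ly6a (108 with ROS and 495 without), and Zfp423 was higher with ROS (5.32 against 4.08). The part of these markers in the differences was not tested. At day 8 the median of all genes was itself -0.20 with ROS, and once samples were rescaled to their medians Smarcd3 was at -0.54 and no subunit passed 1.5-fold.

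Smarca2 was lower with ROS at both days, at 10.5 against 15.2 at day 4 and 7.57 against 11.02 at day 8, or -0.53 and -0.54 on the log2 scale. Smarca4 was nearly equal at day 4 (30.9 with ROS and 31.9 without) and lower with ROS at day 8 (19.8 against 28.4, or -0.52). After rescaling, the differences at day 8 were -0.34 for Smarca2 and -0.32 for Smarca4. Smarcc1 (-0.38 at day 8) and Arid1a (-0.26) were at -0.18 and -0.06 after rescaling. Smarcb1 (-0.05) and Smarcc2 (-0.02) changed sign with the rescaling, to 0.15 and 0.18, while Arid1b (0.18) and Arid2 (0.21) went to 0.38 and 0.40. With the spread taken from the day 0 pair, limma called 0 of 15201 genes at either day, with 1427 at an unadjusted p under 0.05 at day 4 and 4955 at day 8. Whether the effect of ROS differed between the days was tested as an interaction: 0 of 15201 genes passed, with 2526 at an unadjusted p under 0.05. Among the subunits the largest differences between the days were those of Smarcd3 (-0.78 ± 0.33) and Smarca4 (-0.47 ± 0.11, log2 and SE).

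The transduced cells address whether the subunits responded to the phosphorylation site and the demethylase activity of JMJD1A. No subunit differed by 2-fold in any of the 5 comparisons. Of all genes, 4.96% differed by that much between S265A and the WT pair, 4.60% between S265D and the WT pair, 9.49% between S265D-H1120Y and the WT pair, 6.30% between S265D and S265A, and 9.11% between S265D-H1120Y and S265D. The fit with limma, with 1 residual degree of freedom from the WT pair, called 0 of 15366 genes in each (between 49 and 276 at an unadjusted p under 0.05). At 1.5-fold, Smarca2 and Smarcd3 were lower in S265A than in the WT pair (7.31% of all genes were), none passed in S265D (4.81% lower and 8.88% higher), and Smarca2 was lower in S265D-H1120Y (13.2%). Between mutants, S265D had higher Smarca2 (12.3%) and lower Smarcd1 (6.89%) than S265A, and S265D-H1120Y had lower Smarca2 than S265D (14.2%). The comparisons share samples, so they are not independent of each other.

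Smarca2 accounted for most of these. The WT samples were at an FPKM of 16.2 (A) and 12.1 (B), and the mutants at 9.12 in S265A, 15.9 in S265D and 8.83 in S265D-H1120Y. S265D thus lay between the WT samples, and the other mutants lay below both. Against the WT pair, S265A was at -0.61 and S265D-H1120Y at -0.66 on the log2 scale, and S265D at 0.19. S265D was above S265A by 0.80. The WT samples themselves were apart by a ratio of 1.34. Unlike in the time course, the part of the gene outside the shared 3′ exons showed the same pattern, with 9.65 and 5.08 in WT A and B, 4.47 in S265A, 8.67 in S265D and 4.51 in S265D-H1120Y. Against WT B alone, S265A was at -0.40 and S265D-H1120Y at -0.45 for the short row, and neither passed 1.5-fold.

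Smarcd3 turned on a single sample. WT A had an FPKM of 5.11 and WT B one of 1.20, with 1.40 in S265A, 1.81 in S265D and 1.66 in S265D-H1120Y. WT A was the highest of the 11 samples and WT B the lowest. Against WT A alone, S265A was at -1.80, S265D at -1.45 and S265D-H1120Y at -1.56 on the log2 scale, and against WT B alone they were at 0.21, 0.56 and 0.44. The direction for Smarcd3 was therefore set by the WT sample used.

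Smarcd1 was at 11.2 and 8.10 in WT A and B, 11.6 in S265A, 7.29 in S265D and 8.69 in S265D-H1120Y, and S265D was below S265A by 0.66 on the log2 scale. Smarca4 was at 24.6 and 15.7 in WT A and B, 18.9 in S265A, 15.7 in S265D and 16.1 in S265D-H1120Y. Smarcb1 (54.1 for A and 39.3 for B) and Smarcc2 (63.4 and 44.3) were likewise highest in WT A, with the mutants from 34.4 to 45.5 and from 43.0 to 49.1. The remaining subunits were closer together: Arid1a lay between 9.31 and 10.997, Arid1b between 5.43 and 6.69, Arid2 between 9.84 and 11.4, and Smarcc1 between 14.1 and 17.6 over all 5 samples. The summed FPKM of the beige markers was 301 for WT A and 35.9 for WT B, between which lay S265A (55.7), S265D (186) and S265D-H1120Y (98.5). Preadipocyte markers summed to 150 in WT A, 574 in WT B, 248 in S265A, 483 in S265D and 219 in S265D-H1120Y. Most of each sum was Ly6a, at 116, 496, 199, 417 and 165 in the same order. Other markers did not follow it: among these samples Dlk1 was highest in S265A (1.35) and Sox9 in S265D-H1120Y (3.81). What part the state of differentiation of each culture has in these differences was not tested.

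**Figure D5:**
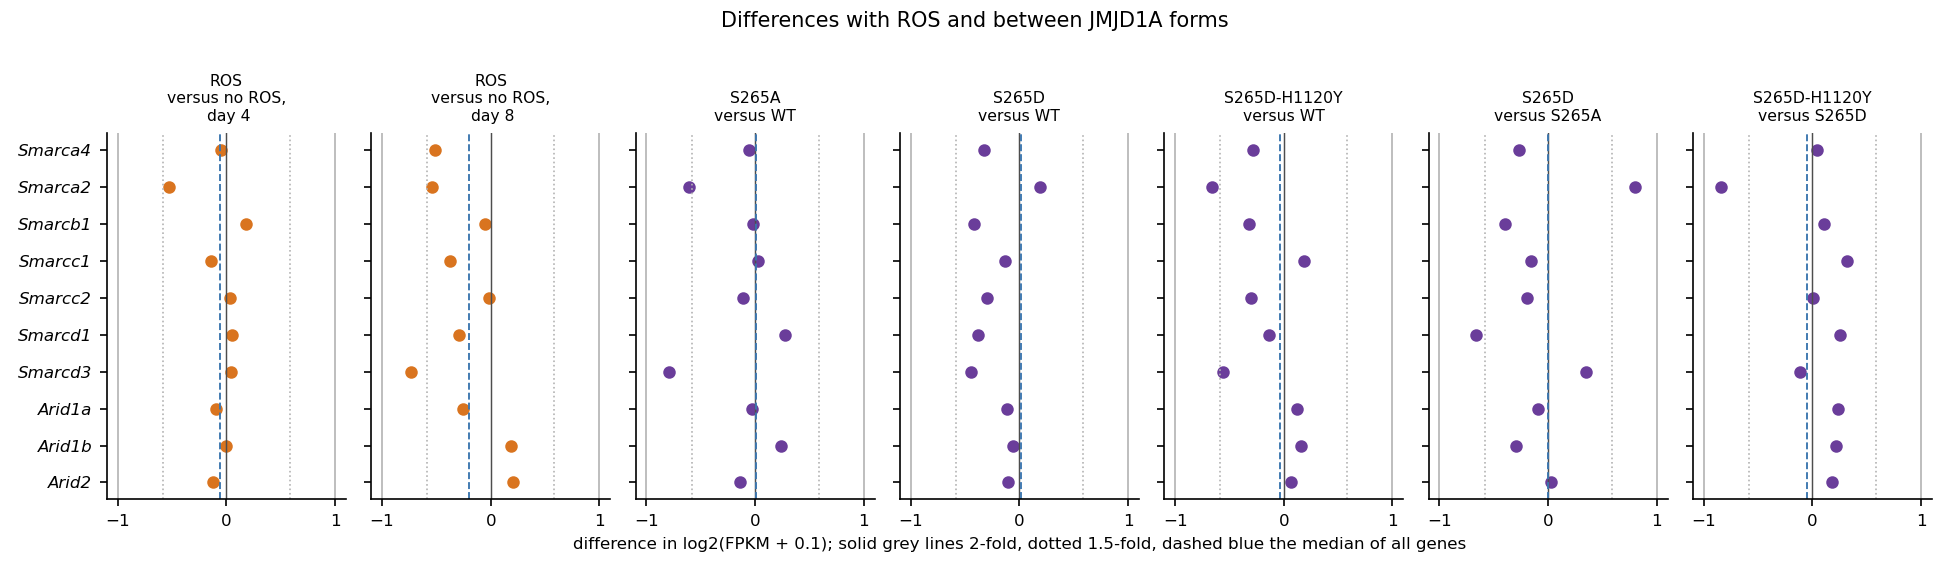
Difference in log2(FPKM + 0.1) of each subunit with ROS against without it (orange, 1 sample a side) and between JMJD1A forms (purple, WT being the mean of 2 samples). Solid grey lines mark 2-fold, dotted lines 1.5-fold and the dashed blue line the median of all genes. No point passes 2-fold, and Smarca2 goes from 0.80 (S265D versus S265A) to -0.84 (S265D-H1120Y versus S265D).

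Over the 11 samples the log2 values of Smarcc1 and Arid1a had a Pearson r of 0.99 and those of Smarcc1 and Smarca4 of 0.95, while Smarcc1 and Smarcc2 had 0.23 and Arid1a and Arid1b -0.46. These are descriptions over samples that share cultures, days and treatment. For Smarcc1 and Smarca4, which had the widest range over the time course, the most alike genes were sought among 9078 with a mean FPKM of at least 1 and a log2 range of at least 1. They were BC017647 (Pearson r = 0.988), Set (0.988) and Ctps (0.981) for Smarcc1, and KIAA1440 (0.990), 5730494M16Rik (0.990) and Nde1 (0.989) for Smarca4.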

How the data were processed

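RNA-seq was carried out by the authors on 11 samples, grouped by the sample labels. Reads of TruSeq libraries were mapped to mm9 and to UCSC transcripts by Burrows-Wheeler aligner, with local realignment and use of strand. The authors deposited FPKM per transcript, with log10 and log2 columns of the FPKM beside it, which were not used. Mapped bases are deposited as a coverage signal per transcript. They are not read counts, so no count test was used, and the totals behind the FPKM (3.105 to 5.295 Gb) limit the precision of low values.

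The row flagged as representative stood for each gene, on the sense strand. Log2(FPKM + 0.1) was fitted with limma (version 3.58.1, R 4.3.3, trend in the prior) over genes with a mean FPKM of at least 0.1, with Benjamini-Hochberg adjustment. Days were compared over 6 samples with 3 residual degrees of freedom, and called at an adjusted p of 0.05. ROS and the mutants, with 1 sample a side, were called at 2-fold, and the limma fit had 1 residual degree of freedom. Fold changes on this scale understate changes of low genes. The limma script was tested on simulated data.

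Named genes were the 10 subunits, Kdm3a, further SWI/SNF genes that were called or moved most, at most 3 of each other list by FPKM and those called, markers at 0 in every sample and the 4 remodelers of no stated family (both named after their values were seen), and the 3 genes most alike to each of the 2 subunits of widest range. Of the called genes among the 30 other remodelers only Chd7 is named. Dlk1, Sox9 and Zfp423 are named for not following the preadipocyte sum, also after their values were seen. The subunits and lists were chosen with earlier results of these data known. Alternatives changed the pseudocount, the filter, the transcript, the scaling, the ROS term, an arm block, the samples lending spread and the samples included. Sequences were read from the mm9 genome (NCBIM37). Tables were made with Python 3.11.15, pandas 2.3.3 and numpy 2.4.6, and figures with matplotlib 3.10.9.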

Additional observations from a re-analysis of the deposited data

Results flagged for a closer look

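Antisense rows are not used in any comparison above. For 9 of the 10 subunits the antisense FPKM at day 8 was not at least 2-fold above the mean of the day 0 pair in both samples. Smarcb1 was the exception: its antisense FPKM was 0.9444 at day 8 without ROS and 0.7002 at day 8 with ROS, against 0.239 and 0.318 at day 0 and 0.216 and 0.657 at day 4 without and with ROS. In the transduced cells it lay between 0.138 and 0.352. These values are at most 1.71% of the sense FPKM, and no gene of GENCODE vM1 overlaps Smarcb1 on the opposite strand. The difference was not tested.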

How the results depend on the processing

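Each comparison was repeated with another pseudocount, filter, transcript, scaling, spread and set of samples, and the cause of each change below was not tested. With a sample left out of a day, the lone sample is assumed to vary like the other groups. Leaving out each sample, the subunits called went from 0 to 5 at day 4 (4 above), from 2 to 5 at day 8 (6 above) and from 0 to 3 between days 4 and 8 (0 above), and the genes called from 2212 to 8792 (6330 above), 3445 to 9480 (7755) and 0 to 3449 (75). Between days 4 and 8, ROS as a term gave 1 subunit and 1653 genes, and 122 genes were called with a pseudocount of 1, 11 with no filter and 120 after rescaling to the median. Differences near 0 changed sign: Arid1b at day 4 with ROS as a term (-0.0076), and, over the samples left out, Arid1b at day 4 (-0.061 to 0.13) and day 8 (-0.046 to 0.15), Arid2 at day 4 (-0.13 to 0.11) and Smarcd3 at day 8 (-0.36 to 0.38). Subunits past 1.5-fold with ROS at day 8 went from 1 to 0 with a pseudocount of 1 and to 0 after rescaling, and those in S265A against WT from 2 to 1 with a pseudocount of 1. Against single WT samples the counts past 1.5-fold were 0 (without WT A) for S265A, 4 (without WT B) for S265D, and 0 and 3 for S265D-H1120Y, and Smarcd3 alone passed 2-fold in each of these 3 without WT B. The limma calls for ROS, 0 above, became 389 genes at day 4 after rescaling, and at day 8 they became 1749 with a mean FPKM of at least 1, 718 with no filter and 3886 after rescaling. Genes past 2-fold with a pseudocount of 1 numbered 39 for ROS at day 4 (372 above), 851 at day 8 (2053), 163 in S265A (762), 183 in S265D (707) and 572 in S265D-H1120Y (1458) against WT, and without WT B the last 3 were 2105, 2367 and 3109. By the transcript with the highest mean FPKM, mean levels at day 0 were 19.4 for Arid1a, 19.1 for Smarca2, 61.3 for Smarca4, 44.4 for Smarcc1 and 52.5 for Smarcc2. By that with the most exon bases they were 8.84 for Smarca2 and 49.8 for Smarcc2, and Smarca4 over Smarca2 moved by -0.75 from day 0 to day 8 (-0.24 above). For the days, the arm of the label, day 0 included, was added as a replicate block after the data were seen, although it is also the ROS treatment and no label says that an arm is 1 culture. Deviations of the arms correlated across genes by -0.19 (days 0 and 4), -0.034 (days 0 and 8) and 0.40 (days 4 and 8). With this block 4, 5 and 0 subunits and 6305, 7667 and 66 genes were called at day 4, at day 8 and between them, Arid2 at day 8 being the call lost (adjusted p = 0.0640).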
